A study of Mus musculus with 2 samples.

Results

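Cytoplasmic ribosomal protein genes were examined in cultured mouse embryonic fibroblasts, the connective-tissue cells that grow out of dissociated embryos, of the genotypes MatDup.dist7 and PatDup.dist7. The members were the genes whose single platform symbol has the Rpl, Rplp, Rps or Rpsa form, paralogs ending in l included. They comprised 59 genes on 215 probe sets, among 19938 genes on 21789 probe sets with 1 symbol. A further 233 probe sets named a gene of this form together with other symbols, and they carried 16 such genes that had no probe set of their own (Rpl3, Rpl11, Rpl13a, Rpl15, Rpl17, Rpl31, Rpl32, Rpl35, Rpl35a, Rpl37, Rpl39, Rps16, Rps23, Rps24, Rps26 and Rps27). These 16 genes were not measured as members. The large subunit contributed 37 members and the small subunit 22.

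MatDup.dist7 marks a maternal duplication of distal chromosome 7, with no paternal copy of that segment, and PatDup.dist7 marks the paternal duplication. Both cultures were derived at 13.5 days post coitum and grown in the same medium. Total RNA of each genotype was hybridised to 1 Affymetrix array, so no difference could be tested between genotypes and no p-value is given. How many embryos or cultures stand behind each array is not stated in the labels.

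The ribosome builds every cellular protein, and in the cytoplasm it joins a small subunit, which reads the messenger RNA, to a large subunit, which forms the peptide bonds. Each ribosomal protein is needed in about equal amounts, and the genes are among the most strongly transcribed of growing cells. Their messenger RNAs typically begin with a run of pyrimidines, the terminal oligopyrimidine tract, through which the mTOR kinase and Larp1 control their translation. Mammalian genomes also carry many reverse-transcribed copies of these genes, whose sequence is close to that of the parent gene.

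The windows below show what the tract looks like at the annotated start of members. Of the 59 members, 47 had a promoter entry in the RefSeq table (GRCm38.p6), and 10 of these (21.3%) had a C at an annotated start followed by at least 4 more C or T letters. The same holds for 2.75% of the 15614 genes of the array with an entry. In the following windows, which are given 5′ to 3′ and cover 30 bases before the start and 15 from it, capitals mark the unbroken run of C and T from the start.
Rps21 (chr2:180257349-180257393, plus strand): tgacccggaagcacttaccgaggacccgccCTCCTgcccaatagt
Rps10 (chr17:27635230-27635274, minus strand): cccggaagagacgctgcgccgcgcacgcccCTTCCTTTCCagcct
Rps15a (chr7:118116133-118116177, minus strand): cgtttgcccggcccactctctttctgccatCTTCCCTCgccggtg
Rps6 (chr4:86857353-86857397, minus strand): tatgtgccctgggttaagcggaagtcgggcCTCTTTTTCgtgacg
Rplp2 (chr7:141447621-141447665, plus strand): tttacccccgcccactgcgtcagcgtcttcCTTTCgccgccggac
Rpl28 (chr7:4792935-4792979, plus strand): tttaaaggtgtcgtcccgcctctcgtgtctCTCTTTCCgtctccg
Rpl38 (chr11:114668550-114668594, plus strand): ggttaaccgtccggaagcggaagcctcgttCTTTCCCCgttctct
These 7 were shown because they carry the tract, and they are listed from the highest to the lowest difference. The 10 members with the tract, which also include Rpl14, Rpl32l and Rps18, had a median log2 difference of 0.05 (6 above 0, 4 below), against 0.06 for the other matched members. The letters CCGGAAG, the core of sites bound by ETS-family factors, occurred on either strand in the 300 bases around a start of 18 of the 47 members (38.3%) and of 13.6% of the array's genes. The median log2 difference was 0.11 in the 18 members with these letters and 0.05 in those without. A member without a match lacks only these letters in the annotated window.

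Ribosomal protein transcripts differed little between the arrays. All differences below are MatDup.dist7 minus PatDup.dist7 on the log2(intensity + 16) scale, with the probe sets of a gene averaged on that scale (a gene's mean intensity is this average turned back to the linear scale), and a positive value means higher in MatDup.dist7. The median difference was 0.10 over the 59 members, 37 of which were above 0 (background 51.4% of all genes) and 22 below. No member passed the 2-fold rule, which 7.63% of all genes passed (4.47% higher and 3.16% lower in MatDup.dist7). The 1.5-fold rule was passed by 3 members, all higher in MatDup.dist7, while 27.9% of all genes passed it (15.5% higher and 12.5% lower). Differences ran from -0.40 for Rps19 to 0.76 for Rpl10l. The standard deviation was 0.25 between members, 0.58 between all genes and 0.34 between the 1947 other genes of high signal described below. Of the members 39 average several probe sets, while 18843 of the other genes with a known chromosome have 1. The spreads were not compared at equal signal and equal numbers of probe sets. As the cultures are bulk samples, fewer cells of a type and less RNA per cell cannot be told apart.

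**Figure D1:**
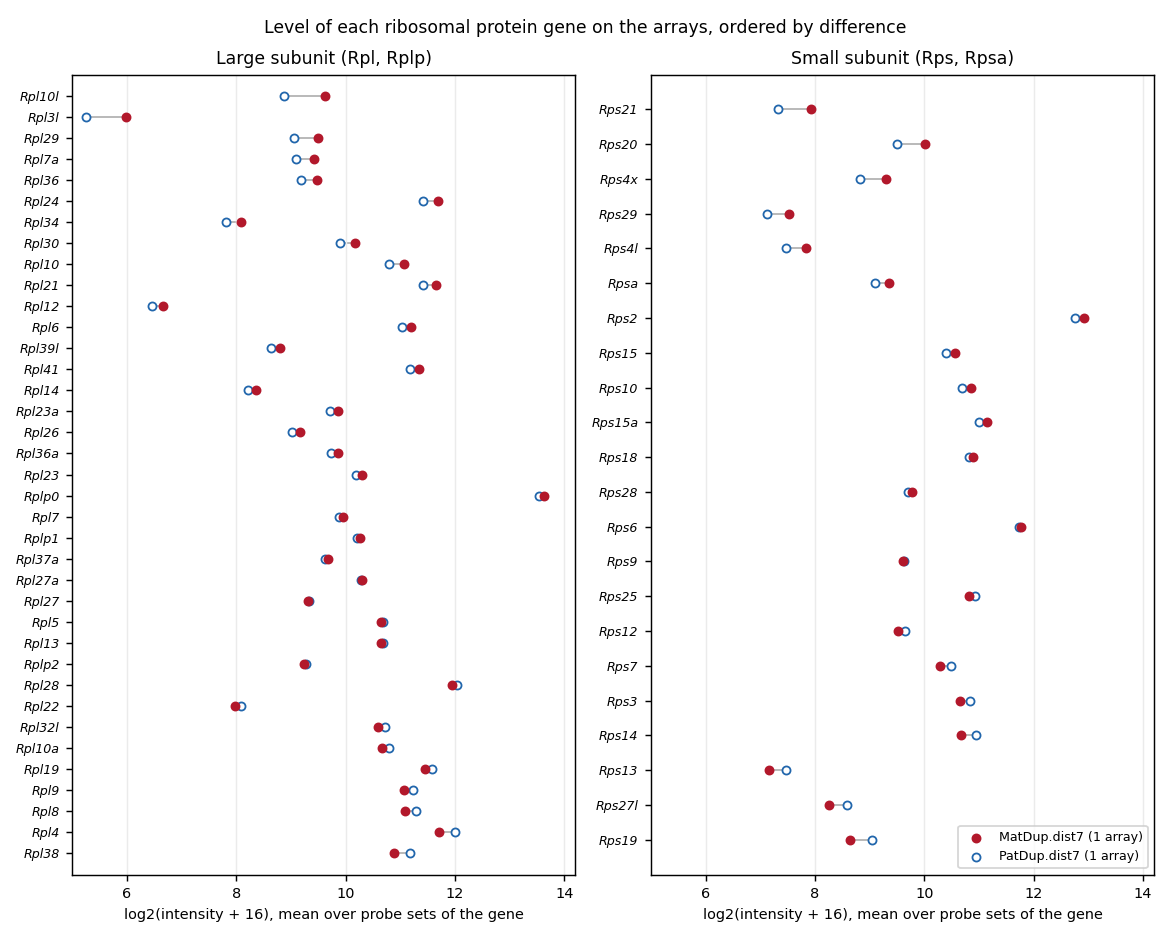
Level of each of the 59 members on the MatDup.dist7 array (filled) and the PatDup.dist7 array (open), as log2(intensity + 16) averaged over the probe sets of the gene, with genes ordered by their difference. Levels of different genes come from different probes and are not comparable, and the gap between the points of a gene stays under 0.8 in every row.

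Most members gave a high signal, and genes of similar signal form a closer comparison than all genes. Of the members, 47 had a mean level above the 90th percentile of genes. The other 1947 genes above this level had a median difference of -0.13 and a standard deviation of 0.34, with 36.4% above 0. Of these genes 5.96% passed the 1.5-fold rule (1.28% higher and 4.67% lower in MatDup.dist7) and 1.13% the 2-fold rule (0.308% higher and 0.822% lower). Genes of high signal were thus shifted by -0.13 as a group. Relative to this shift the members had a median of 0.23, with 47 above 0 (79.7%) and 12 below. The same centring put 60.5% of all genes above 0. After quantile normalisation of the arrays the members had a median of 0.13, with 42 above 0 (71.2%). The same setting put 9974 of all 19938 genes above 0. It put 821 of the 1947 other genes of high signal above 0 (42.2%), with a median of -0.08. Quantile normalisation changed the sign of 5 members (Rpl5, Rpl13, Rpl27, Rplp2 and Rps9), all within 0.05 of 0 as deposited, and pseudocounts of 1 and 64 changed none. The centrings add the same constant to every gene, so a sign they change reflects only how near a member lies to 0. They turned these 5 and Rpl10a, Rpl22, Rpl27a, Rpl28, Rpl32l and Rps25.

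The distributions of the subunits overlapped. Large-subunit members had a median of 0.11 (24 above 0, 13 below) and small-subunit members a median of 0.07 (13 above 0, 9 below). The central part of the distribution, from the 25th to the 75th percentile, ran from -0.05 to 0.24 for the large subunit and from -0.18 to 0.23 for the small subunit.

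Among large-subunit proteins that sit at or near the catalytic and tunnel regions, the values lay on either side of 0. Rpl8, part of the peptidyl transferase region, had an intensity of 2155 in MatDup.dist7 cells against 2469 in PatDup.dist7 cells (log2 difference -0.19). Rpl4, which lines the tunnel through which the new protein leaves, had 3341 in MatDup.dist7 cells against 4056 in PatDup.dist7 cells (-0.28). Rpl23a, which forms the docking site for factors at the tunnel exit, was higher in MatDup.dist7 as a mean over 13 probe sets. This mean was 911 in MatDup.dist7 cells against 822 in PatDup.dist7 cells (0.15). At the probe set placed at its own locus, as described below, Rpl23a had 641 in MatDup.dist7 cells against 637 in PatDup.dist7 cells (0.01). The 12 probe sets placed elsewhere averaged 0.16. Rpl10, an X-linked gene whose protein joins the subunit last, had 2116 in MatDup.dist7 cells against 1758 in PatDup.dist7 cells over 6 probe sets (0.26).

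Averaged over their probe sets, the genes of the stalk proteins, which recruit the elongation factors, differed by at most 0.10. Rplp0, the base of the stalk, had a mean intensity of 12665 in MatDup.dist7 cells against 11816 in PatDup.dist7 cells (0.10). Rplp1 stood at 1215 in MatDup.dist7 cells against 1168 in PatDup.dist7 cells (0.06), and Rplp2 at 585 in MatDup.dist7 cells against 606 in PatDup.dist7 cells (-0.05). The value of Rplp1 averages 2 probe sets of opposite sign, -0.07 at the own locus and 0.18 elsewhere. Rpl5, which carries the smallest ribosomal RNA and can also bind the p53 regulator Mdm2, had 1588 in MatDup.dist7 cells against 1619 in PatDup.dist7 cells (-0.03). This averages 5 probe sets that ran from -0.29 to 0.22. The own-locus probe set of Rpl5 had 2957 in MatDup.dist7 cells against 3458 in PatDup.dist7 cells (-0.22), and the 4 others averaged 0.02.

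Several large-subunit genes are known from mouse mutants with skeletal or growth phenotypes, and they too lay on either side of 0. Rpl38, altered in the Tail-short mouse and known for its role in the translation of Hox messages, had a mean intensity of 1870 in MatDup.dist7 cells against 2285 in PatDup.dist7 cells. All 4 of its probe sets were lower in MatDup.dist7 (mean difference -0.29). Rpl24, altered in the Belly spot and tail mouse, had 3298 in MatDup.dist7 cells against 2703 in PatDup.dist7 cells (0.29), and its 3 probe sets lay between 0.26 and 0.30. Rpl29, whose loss gives small mice, had 702 in MatDup.dist7 cells against 518 in PatDup.dist7 cells on 1 probe set (0.43), the highest difference among canonical large-subunit members.

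The remaining large-subunit members with positive differences were Rpl7a (0.32), Rpl36 (0.30), Rpl34 (0.28), Rpl30 (0.27), Rpl21 (0.24), Rpl12 (0.20), Rpl6 (0.17), Rpl41 (0.16), Rpl14 (0.16), Rpl26 (0.14), Rpl36a (0.13), Rpl23 (0.11), Rpl7 (0.08), Rpl37a (0.05) and Rpl27a (0.01). Those with negative differences were Rpl9 (-0.16), Rpl19 (-0.13), Rpl10a (-0.12), Rpl22 (-0.12), Rpl28 (-0.11), Rpl13 (-0.03) and Rpl27 (-0.03). Some of these means differ in sign from the own-locus probe set. At the own locus Rpl27a (-0.23), Rpl23 (-0.11), Rpl36a (-0.04) and Rpl7 (-0.02) were below 0, and Rpl13 (0.14) was above 0. The canonical large-subunit members together ran from -0.29 to 0.43.

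Canonical small-subunit members reached further in both directions, from -0.40 to 0.61. Rps21 had a mean intensity of 228 in MatDup.dist7 cells against 144 in PatDup.dist7 cells over 2 probe sets, a difference of 0.61 (1.53-fold) and the largest among canonical members. One probe set had 436 in MatDup.dist7 cells against 346 in PatDup.dist7 cells (0.32) and the other 116 in MatDup.dist7 cells against 54.5 in PatDup.dist7 cells (0.91), so the size of the difference rests on the weaker one. Rps20, a protein of the head of the subunit, came next below the 1.5-fold rule, with 1020 in MatDup.dist7 cells against 707 in PatDup.dist7 cells (0.52, or 1.43-fold). At the other end, Rps19, the gene most often mutated in the human anaemia of Diamond and Blackfan, had 384 in MatDup.dist7 cells against 512 in PatDup.dist7 cells (-0.40, or 1.32-fold).

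Rps14 and Rps13 were also lower in MatDup.dist7 at every probe set. Rps14, the gene behind the anaemia of the human 5q deletion syndrome, had a mean intensity of 1605 in MatDup.dist7 cells against 1941 in PatDup.dist7 cells (-0.27). Rps13 had 127 in MatDup.dist7 cells against 160 in PatDup.dist7 cells over 3 probe sets (-0.30). Rps3, which lines the entry of the messenger RNA channel, had 1583 in MatDup.dist7 cells against 1813 in PatDup.dist7 cells (-0.19), while Rps2, at the same entry, had 7771 in MatDup.dist7 cells against 6924 in PatDup.dist7 cells (0.17).

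Other small-subunit members above 0 were Rps29 (0.40), Rpsa (0.25), Rps15 (0.16), Rps10 (0.16), Rps15a (0.14), Rps18 (0.07), Rps28 (0.06) and Rps6 (0.03). Rpsa is also known as the laminin receptor gene. Those below 0 were Rps7 (-0.19), Rps12 (-0.14), Rps25 (-0.11), a protein needed in translation from some viral internal entry sites, and Rps9 (-0.02).

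The 6 members outside the canonical list are paralogs or copies, and the 2 largest differences of all members were found here. Rpl10l, a retrogene paralog of Rpl10 known for its use in male germ cells, had 774 in MatDup.dist7 cells against 451 in PatDup.dist7 cells (0.76, or 1.69-fold). Rpl3l, the striated-muscle paralog of Rpl3, had 47.3 in MatDup.dist7 cells against 22.0 in PatDup.dist7 cells (0.74), and it was the only member under the median signal of all probe sets (66.4) on both arrays. Its difference was 1.07 with a pseudocount of 1 and 0.37 with 64, so both fold rules depend on how low signals are treated. Rps4l, a paralog of Rps4x, had 211 in MatDup.dist7 cells against 161 in PatDup.dist7 cells (0.36). Rps27l, a p53-responsive paralog of Rps27, had 290 in MatDup.dist7 cells against 367 in PatDup.dist7 cells (-0.32). Rpl39l, a testis-enriched paralog of Rpl39, differed by 0.17 and Rpl32l by -0.12. Signal from the closely similar parent genes at these probe sets was not tested.

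Most members were represented by more than 1 probe set, which allowed the agreement of probe sets to be described. Of the 59 members, 20 had 1 probe set and 39 had several, up to 14 for Rps12. In 6 members some probe sets carried identical values on both arrays (15 of the 215 were such repeats), as in Rpl41, whose 3 probe sets all read 2571 in MatDup.dist7 cells against 2296 in PatDup.dist7 cells. These are not separate measurements. With repeats counted once, the standard deviation of the difference between probe sets of 1 member was 0.18 (179 probe sets of 38 members). This spread comes from a single pair of arrays and says nothing of how cultures vary.

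With repeated values counted once, 38 members had several probe sets, and in 22 of them every one had the same sign, 14 higher and 8 lower in MatDup.dist7. Rpl21 was higher at all 9 probe sets, from 0.06 to 0.44, and Rpl36 at all 9, from 0.09 to 0.53. Rpl19 was lower at all 7, from -0.29 to -0.06, Rps25 at all 6 and Rpl28 at all 4 distinct ones. The other 16 members had probe sets of both signs. Rps6, the target of the S6 kinases, had 4 of 8 probe sets above 0 and 4 below, from -0.23 to 0.34, around a mean of 0.03. Probe sets of 1 gene were read on the same pair of arrays, so their number is no measure of precision.

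**Figure D2:**
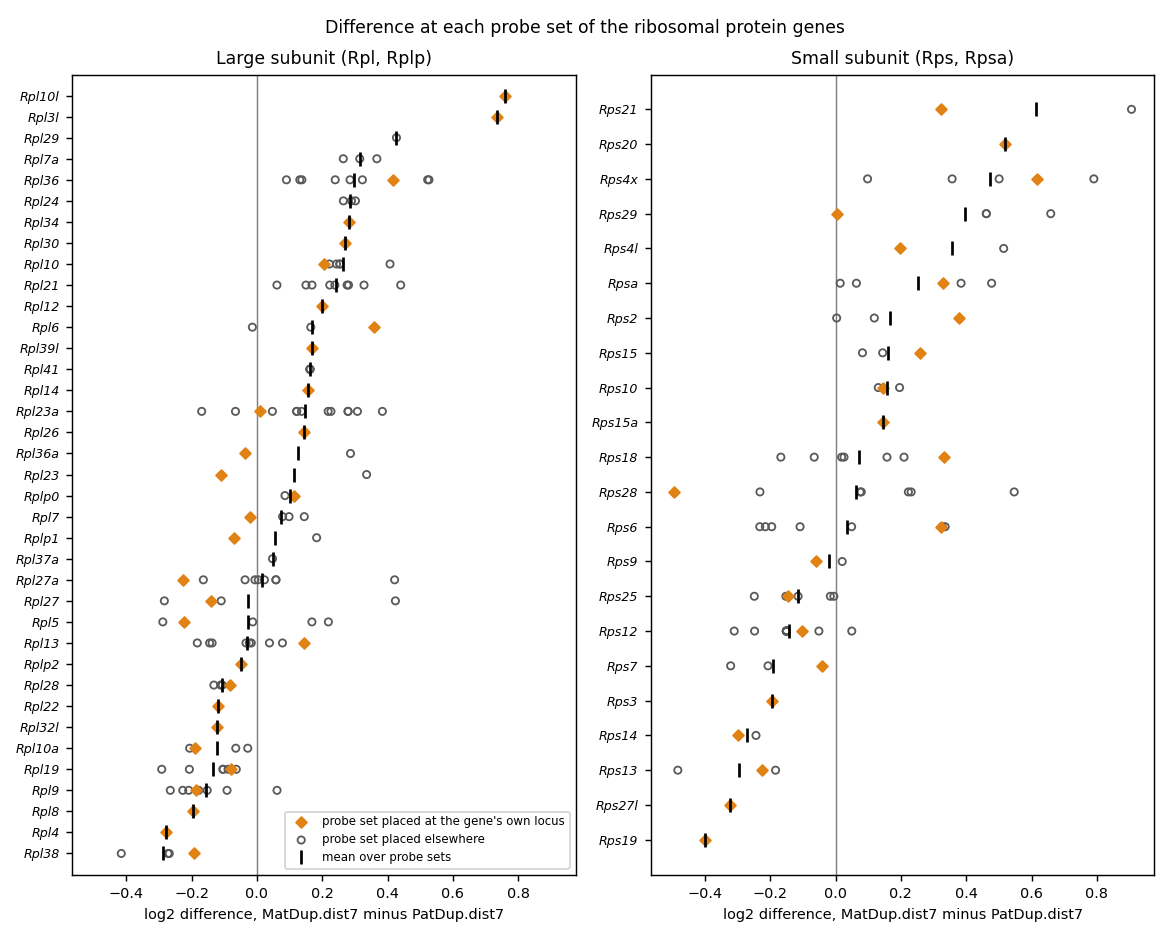
Log2 difference (MatDup.dist7 minus PatDup.dist7) at each of the 215 member probe sets, by gene. Diamonds are probe sets placed at the gene's own locus, circles those placed elsewhere and bars the mean; Rps6 and Rps28 have probe sets on either side of 0, while Rpl21, Rpl36 and Rpl19 lie on 1 side.

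Probe set numbers on this array follow the order of genes along the chromosomes, which gave the place of each member probe set. A probe set was placed at the gene's own locus when at least 3 of its 6 neighbours by number were genes of the same chromosome at a median distance under 2 Mb. The rule recovered the known place of 97.5% of 18843 genes with 1 probe set. It placed 53 member probe sets at the own locus, 1 each for 53 members, and 162 elsewhere in the genome. Rpl7a, Rpl21, Rpl24, Rpl29, Rpl37a and Rpl41 had none at the own locus.

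The own-locus probe sets were compared with all probe sets of the same 53 members. The median difference of these members was -0.021 at the own locus, with 26 above 0 and 27 below, and 0.07 over all their probe sets, with 31 above 0 and 22 below. Own-locus values ran from -0.50 to 0.76. For the 31 large-subunit genes the median was -0.035 at the own locus (14 above 0) and 0.08 over all probe sets (18 above 0). For the 22 small-subunit genes both medians were 0.07 (12 above 0 at the own locus, 13 over all probe sets). The 6 members without an own-locus probe set were all above 0, from 0.05 to 0.43, so leaving them out also lowers the count. In the 35 members with both kinds of probe set, the own-locus difference and the mean of the others correlated across genes with r = 0.50 (Spearman 0.55), genes sharing the 2 arrays. In 11 of the 35 the signs were opposite.

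Rps28 showed the widest gap. Its own-locus probe set had 343 in MatDup.dist7 cells against 490.4 in PatDup.dist7 cells (-0.50), while its 6 others averaged 0.15. The opposite order was seen in Rps6, with 2742 in MatDup.dist7 cells against 2192 in PatDup.dist7 cells at the own locus (0.32) against a mean of -0.01 over the 7 others. The difference of Rps18 was 0.33 at the own locus and 0.03 elsewhere, and that of Rps2 was 0.38 at the own locus and 0.06 elsewhere. For Rps29 the own-locus probe set read 209.7 in MatDup.dist7 cells against 208.9 in PatDup.dist7 cells (0.00), and the other 3 averaged 0.53. Which transcripts gave the signal at probe sets placed elsewhere was not tested.

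**Figure D3:**
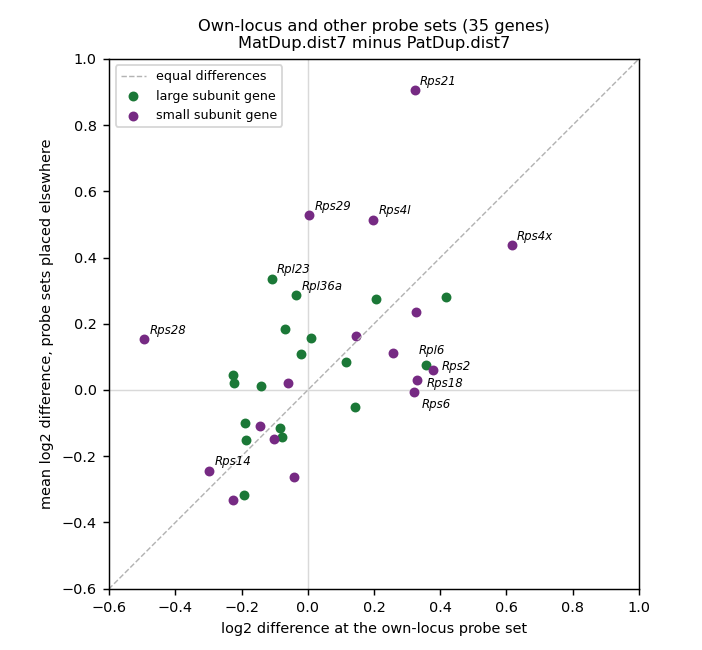
Log2 difference (MatDup.dist7 minus PatDup.dist7) at the own-locus probe set against the mean of the probe sets placed elsewhere, for the 35 members with both. Points on the dashed line have equal differences; Rps28, Rps29 and Rps21 lie far above it and Rps6, Rps2 and Rps18 below.

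Chromosome 7, which carries the duplicated segment, holds 8 members. Their median difference was -0.08, with 2 above 0 and 6 below, and at the own-locus probe sets it was -0.14, with 1 above 0 and 7 below. Members on chromosomes other than 7 had a median own-locus difference of 0.11 (25 above 0, 20 below). Without the X-linked members it was 0.06 (23 above 0, 19 below). The 1046 other chromosome 7 genes above the median signal on at least 1 array had a median of 0.08. Genes of high signal on all chromosomes, members left out, had a median of -0.13. In order along the chromosome the own-locus differences were -0.06 for Rps9, -0.08 for Rpl28, -0.40 for Rps19, -0.19 for Rps3, -0.23 for Rpl27a, -0.23 for Rps13, 0.14 for Rps15a and -0.05 for Rplp2. Rplp2 is the most distal, at place 1662 of 1734 measured genes, ahead of the imprinted genes Igf2 at 1695 and Cdkn1c at 1707, which differed by -5.45 and 6.13. The labels do not state where the duplicated segment begins, so none of the 8 was assigned to it.

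The X-linked members were read against the sex-linked transcripts, which differed between the cultures. Xist, the RNA that coats the inactive X, read 0.00166 on the MatDup.dist7 array against 91.2 on the PatDup.dist7 array, and the Y-linked Eif2s3y had 112 in MatDup.dist7 cells against 6.44 in PatDup.dist7 cells. Genotype and sex of the cells therefore cannot be told apart. Rps4x, the X-linked gene of a small-subunit protein, had a mean of 611 in MatDup.dist7 cells against 436 in PatDup.dist7 cells, with all 5 probe sets higher (mean 0.47), and its own-locus probe set had 190.2 in MatDup.dist7 cells against 119 in PatDup.dist7 cells (0.62). Rpl10 was higher at all 6 probe sets (5 distinct values), by 0.21 at the own locus. Rpl36a had 911 in MatDup.dist7 cells against 834 in PatDup.dist7 cells (0.13) and -0.04 at the own locus. The 381 other X-linked genes above the median signal on at least 1 array, Xist among them, had a median difference of 0.06.

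Other gene lists of the translation system had lower medians than the ribosomal proteins, a difference that was not tested. Translation factors, of which 34 of 41 were measured, had a median of -0.14, with 13 above 0 and 21 below, and none at least 1.5-fold higher (15.5% of all genes) and 3 at least 1.5-fold lower (12.5% of all genes). These 3 were Eif2s2 (217 in MatDup.dist7 cells against 424 in PatDup.dist7 cells, -0.91), Eif5 (-0.80) and the X-linked Eif2s3x (868 in MatDup.dist7 cells against 1434 in PatDup.dist7 cells, -0.71). The highest was Eif1ax (0.55). Relative to the shift of genes of high signal the median of the list was -0.01.

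Ribosome biogenesis genes, all 48 of which were measured, had a median of -0.26, with 12 above 0 and 36 below, 3 at least 1.5-fold higher (15.5% of all genes) and 7 at least 1.5-fold lower (12.5% of all genes). Polr1b, a core subunit of the polymerase that transcribes ribosomal RNA, had 107 in MatDup.dist7 cells against 227 in PatDup.dist7 cells (-0.98). Ebna1bp2, a large-subunit assembly factor, had 82.1 in MatDup.dist7 cells against 178 in PatDup.dist7 cells (-0.98), and Tsr1, a small-subunit assembly factor, differed by -0.88. Nop10, of the pseudouridylation complex, passed the 2-fold rule, with 361 in MatDup.dist7 cells against 165 in PatDup.dist7 cells (1.06). Polr1b and Ebna1bp2 missed it through the pseudocount of 16, and with a pseudocount of 1 their differences were -1.08 and -1.11. Relative to the shift of genes of high signal the median was -0.13. Most biogenesis genes have lower signal than the genes that gave this shift, and whether they share it was not tested. Mitochondrial ribosomal proteins, a separate set that serves the mitochondrial genome, had a median of -0.22, with 25 of 77 above 0. After centring on genes of high signal 33 of 77 were above 0 (60.5% of all genes) and the median was -0.09.

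**Figure D4:**
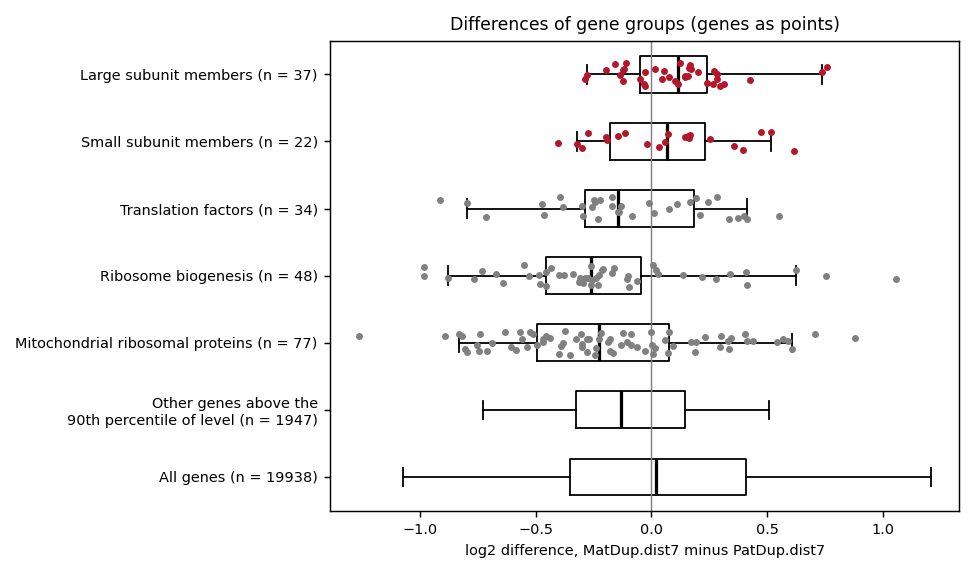
Log2 differences (MatDup.dist7 minus PatDup.dist7) of gene groups, with boxes from the 25th to the 75th percentile, a line at the median, whiskers over the central 95% and points for genes of the smaller groups. The medians of the ribosomal protein members lie at 0.11 and 0.07, and those of translation factors, ribosome biogenesis and mitochondrial ribosomal proteins at -0.14, -0.26 and -0.22.

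All 10 fibroblast markers had a value, 3 with a positive difference and 7 with a negative one, from -0.50 for Col3a1 to 0.84 for S100a4, and only Lum lay under the median signal on both arrays. Summed marker intensity was 41609 in MatDup.dist7 cells against 47596 in PatDup.dist7 cells for fibroblasts. In the same order of arrays it was 2460 and 2742 for macrophages (4 markers), 209 and 230 for endothelium (3 markers), 406 and 269 for epithelium (3 markers) and 757 and 389 for neural cells (2 of 3 markers with a value). These sums are set mostly by the strongest probe sets, and members of a list differed in sign. Adgre1 (0.96) and Cd68 (-0.74) of the macrophage list lay on opposite sides of 0, as did Cdh5 (0.51) and Kdr (-0.75) of the endothelial list. The 3 epithelial markers and the 2 neural markers were all above 0. The 3 erythroid markers had no value here. The part of such cells in the ribosomal protein values was not tested.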

How the data were processed

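The deposited values are linear intensities, 1 for each probe set on each array, which the authors made with Affymetrix Expression Console, per the submitters' processing notes. The background correction and normalisation steps are not stated in the labels. Gene symbols came from the platform annotation, and only probe sets with 1 symbol were used. Chromosomes and gene order came from the reference gene table of GRCm38.p6. Values were taken to log2(intensity + 16) and averaged over the probe sets of a gene. With 1 array per genotype there was no test; 2-fold and 1.5-fold rules were applied instead. Precision is limited by the number of arrays. The members, lists and rules were chosen with earlier results of these data known. Genes were named by a rule that took members at least 1.5-fold apart, the 6 largest canonical differences in each direction, weak members, members on chromosomes 7 and X, paralogs and members with several probe sets (the other members are given by their differences), and up to 4 genes with the largest difference in each other list. Alternatives covered pseudocounts of 1 and 64, scaling, signal filter, probe set averaging and membership. Splitting probe sets by own locus and counting repeated values once were chosen after seeing the data. The scripts were first tested on simulated data with known differences. Python 3.11.15, numpy 2.4.6, pandas 2.3.3 and matplotlib 3.10.9 were used.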

Additional observations from a re-analysis of the deposited data

How the results depend on the processing

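With own-locus probe sets only, the median difference of the members was -0.021 (0.10 over all members) and that of the large subunit -0.035 (0.11 over all); the small-subunit median was 0.07. This setting keeps 53 members and drops 6, all of them positive. On all their probe sets the same 53 members had a median of 0.07, so part of the move is membership. Both settings were chosen after seeing the data. All other settings run left the 3 medians positive, between 0.02 and 0.25. The count of members at least 1.5-fold apart (3) became 1 with a pseudocount of 64, 1 among canonical members and 1 with probe sets away from the own locus only (41 members). It became 5 after centring on genes of high signal. With each probe set counted on its own, 6 of 215 were at least 1.5-fold apart, in place of 3 of 59 members. The same setting gave 121 positive differences of 215, in place of 37 of 59. The totals differ, so these counts are not to be compared directly. The count at least 2-fold apart (0) became 1, Rpl3l, with a pseudocount of 1. In the list of mTOR pathway and Myc genes the number above 0 was 4 of 17 as deposited, 6 after quantile normalisation and 7 after centring on genes of high signal. No paired analysis was possible because each genotype has 1 array. Leaving out a replicate was likewise not possible.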

Other observations

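Regulators of ribosomal protein synthesis, listed as the mTOR pathway with Myc and Max, had a median difference of -0.28 over the 17 of 18 genes measured. Of these, 4 were above 0 (51.4% of all genes) and 13 below. After centring on genes of high signal the median was -0.15, with 7 above 0 (60.5% of all genes). Many genes of the list have lower signal than the genes that gave this shift, and whether they share it was not tested. Mtor, the kinase itself, had an intensity of 134 in MatDup.dist7 cells against 209 in PatDup.dist7 cells (-0.59), and Tsc1, a brake on the pathway, had 107 in MatDup.dist7 cells against 166 in PatDup.dist7 cells (-0.57). Rictor, of the second mTOR complex, had 463 in MatDup.dist7 cells against 268 in PatDup.dist7 cells (0.75), and Mlst8, common to both complexes, had 182 in MatDup.dist7 cells against 120.04 in PatDup.dist7 cells (0.54). Transcript levels of a kinase are no measure of its activity, which was not measured. Rictor was the only gene of the list at least 1.5-fold higher (15.5% of all genes) and Mtor the only one at least 1.5-fold lower (12.5% of all genes).

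The 233 probe sets that name a cytoplasmic ribosomal protein gene together with other symbols were left out of the members. Their median difference was 0.16, and they ran from -0.44 to 0.81. Of the 233, 176 were above 0 (75.5%, beside 51.4% of all genes). The 233 probe sets name only 34 such genes, and repeated values were not removed. Probe sets of the same gene are therefore counted separately here, while the shares of all genes count each gene once. Only 12 of the 233 went past the 1.5-fold rule upward in MatDup.dist7, and none downward. Among all genes, 15.5% went past it upward and 12.5% downward. Those shares are of genes with 1 symbol, and none was computed for probe sets with several symbols in general. No gene is named from them, as the symbols cannot be told apart.

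Fau, which encodes a small-subunit protein fused to a ubiquitin-like protein and lies outside the symbol rule (it was chosen after its values were seen), had a mean intensity of 1064 in MatDup.dist7 cells against 1165 in PatDup.dist7 cells over 2 probe sets (-0.13).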
